A study of Mus musculus with 2 samples.

Results

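The genes described here are 10 mouse genes of the MHC class I antigen presentation pathway: B2m, H2-K1, H2-D1, H2-Q4, H2-T23, Tap1, Tap2, Tapbp, Psmb8 and Psmb9. They were taken by symbol from the gene table of 2 single-cell RNA libraries, and all 10 were among its 27998 rows. Both libraries came from hindlimb muscle cells of Fsp1-Cre:R26R-EYFP mice, sorted as YFP+CD11b-. In these mice Cre driven by the Fsp1 (S100a4) promoter switches on a permanent YFP label, so a sorted cell need not express Fsp1 at the time of capture. The day 0 library came from mice without surgery and the day 28 library from mice 28 days after hindlimb ischemia surgery. Sex, age, the number of animals pooled and the MHC haplotype are not given in the sources used here. Each group is 1 library, so no difference below has a replicate check and no test between groups was made. All intervals are exact 95% intervals for counting error only.

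MHC class I molecules show peptides from inside a cell to CD8 T cells and NK cells. A heavy chain, here H2-K1, H2-D1, H2-Q4 or H2-T23, pairs with the invariant light chain beta-2 microglobulin, the product of B2m. Proteasomes cut proteins to peptides, and in immune cells the inducible subunits Psmb8 and Psmb9 take the places of Psmb5 and Psmb6. The Tap1 and Tap2 proteins form the transporter that carries peptides into the endoplasmic reticulum, where tapasin, the product of Tapbp, holds empty heavy chains for loading. Leukocytes express the pathway widely, and interferons raise it.

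On GRCm38 (mm10) with GENCODE M21, 9 of the 10 genes lie on chromosome 17 between 33915899 and 36032855, in and around the MHC, and B2m lies on chromosome 2 at 122147686 to 122153083. H2-K1 spans 33996017 to 34000347 and H2-D1 spans 35262730 to 35267499. The RefSeq starts of Tap1 and Psmb9 lie back to back with 225 bases between them. The RefSeq promoter table of GRCm38.p6 held 9 of the 10 genes. Stretches upstream of the RefSeq starts of the light chain and of 3 heavy chain genes are shown because their levels are followed together below. The H2-D1 stretch lies inside the GENCODE span given above, where an annotated isoform starts further upstream. Capitals mark matches, on either strand, to an interferon-response type motif (GAAANNGAA or GAANNGAAA) or a kappa-B type motif (GGGNNTTCC). Each stretch runs 5′ to 3′ on the strand of its gene, at chr2:122147528-122147576 (+), chr17:34000409-34000478 (-), chr17:35262923-35262952 (+) and chr17:35379424-35379492 (+) in the order given.
B2m: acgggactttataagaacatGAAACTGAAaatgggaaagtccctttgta
H2-K1: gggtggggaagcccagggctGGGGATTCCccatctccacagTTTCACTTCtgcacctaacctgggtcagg
H2-D1: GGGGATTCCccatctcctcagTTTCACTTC
H2-Q4: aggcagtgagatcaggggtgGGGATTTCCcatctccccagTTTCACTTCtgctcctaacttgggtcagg

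The H2-K1 and H2-D1 stretches, from the first capital to the last, shared 29 of 30 bases and differed by A18T, counted from the first G in H2-K1. The interferon-response type letters were found in the 250 bases before the start in 5 of the 9 genes (B2m, H2-K1, H2-D1, H2-Q4 and H2-T23) and in 12.5% of all 32851 promoters. The kappa-B type letters were found in 3 of 9 (H2-K1, H2-D1 and H2-Q4) and in 4.98% of all promoters. A match describes the letters and is not a measured site. Some members share stretches with other genes near the 3′ end, where droplet reads fall. Of the 50-base words in the last 500 bases of their coding transcripts, 9.60% for H2-K1, 8.92% for H2-D1, 33.7% for H2-Q4 and 38.1% for H2-T23 also occurred in a transcript of another gene, against 0 for B2m, Tap2, Psmb8 and Psmb9. H2-K1 and H2-D1 shared most with each other, while H2-Q4 shared most with Gm43321 and H2-T23 with Rab33b, neither of them a heavy chain gene. Values of H2-Q4 and H2-T23 are therefore read as uncertain beside those of the other members. Antisense or overlapping genes are annotated over all members except H2-K1 and H2-D1, and the strand setting of the counting is not given in the sources used here.

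The day 0 library held 2668 barcodes and 19574562 UMIs, with a median of 4844 per barcode. The day 28 library held 2653 barcodes and 38785525 UMIs, with a median of 12265. After filtering, 2609 and 2580 cells remained, and 13 barcodes occurred in both libraries. Markers of the labelled muscle tissue and of fibroblasts were nearly absent: Acta1 stood at 8.91 and 0.509 CPM (UMIs of a gene per 1000000 UMIs) and Col1a1 at 4.64 and 2.87 CPM, against 194 and 73.1 CPM for the leukocyte gene Ptprc. The cells were grouped into 19 clusters without using any member gene. Classes are named from marker genes, in the sense of cells like the named type, and a class is given where it had at least 50 cells in a library. The T or NK class had 765 and 78 cells at day 0 and day 28, B precursors 269 and 237, macrophages or monocytes 217 and 435, granulocyte-monocyte precursors 148 and 728, plasmacytoid dendritic cells 137 and 131, early progenitors 137 and 308, and erythroid cells 102 and 125. Cluster 6, led by Cd7, Ms4a6c and Plbd1, stayed unnamed and had 104 and 253 cells. B lymphocytes (329 cells) and cluster 7 (290 cells) were counted at day 0 only, and plasma cells (75), basophils or mast cells (72) and cluster 15, led by Car1 and Car2 (76), at day 28 only. Cluster 7 held cells with T and B markers together. At day 0, 230 cells (8.82%) had at least 3 UMIs of both kinds, against 14 (0.543%) at day 28. The T or NK class of day 0 was mostly cluster 1 (545 cells, led by Cd8b1 and Dapl1), and that of day 28 mostly cluster 8 (64 of 78 cells). B precursors were 168 cells of cluster 5 and 101 of cluster 12 at day 0, and 231 and 6 at day 28.

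The first comparison was between cell classes of 1 library. B2m was found in every class, at levels from 778 to 10630 CPM at day 28 and 833 to 3629 CPM at day 0. A UMI marks 1 molecule by its 3′ end, so CPM values need no division by length. At day 0, B2m was highest in plasmacytoid dendritic cells at 3629 CPM (3482 to 3781), followed by the T or NK class at 3203 CPM and cluster 7 at 3179 CPM, whose intervals overlapped. Cluster 6 (2519 CPM) and B precursors (2325 CPM) came next. Early progenitors (2125 CPM), macrophages or monocytes (2066 CPM) and B lymphocytes (1958 CPM) followed, each overlapping its neighbour in that order. The B lymphocyte value joins cluster 9 at 2356 CPM (259 cells) and cluster 16 at 1148 CPM (70 cells). Granulocyte-monocyte precursors stood at 1341 CPM and erythroid cells lowest at 833 CPM (781 to 888). At day 28 the order began with plasma cells, the antibody-secreting cells, at 10630 CPM (10380 to 10885), 5.93 times the B precursors of the same library (1793 CPM). The 26 plasma cells of day 0, too few to be compared, stood at 10699 CPM. Plasmacytoid dendritic cells (3899 CPM) and the T or NK class (2129 CPM) again led the remaining classes, and cluster 15 (781 CPM) and erythroid cells (778 CPM) were lowest and not separable.

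**Figure D1:**
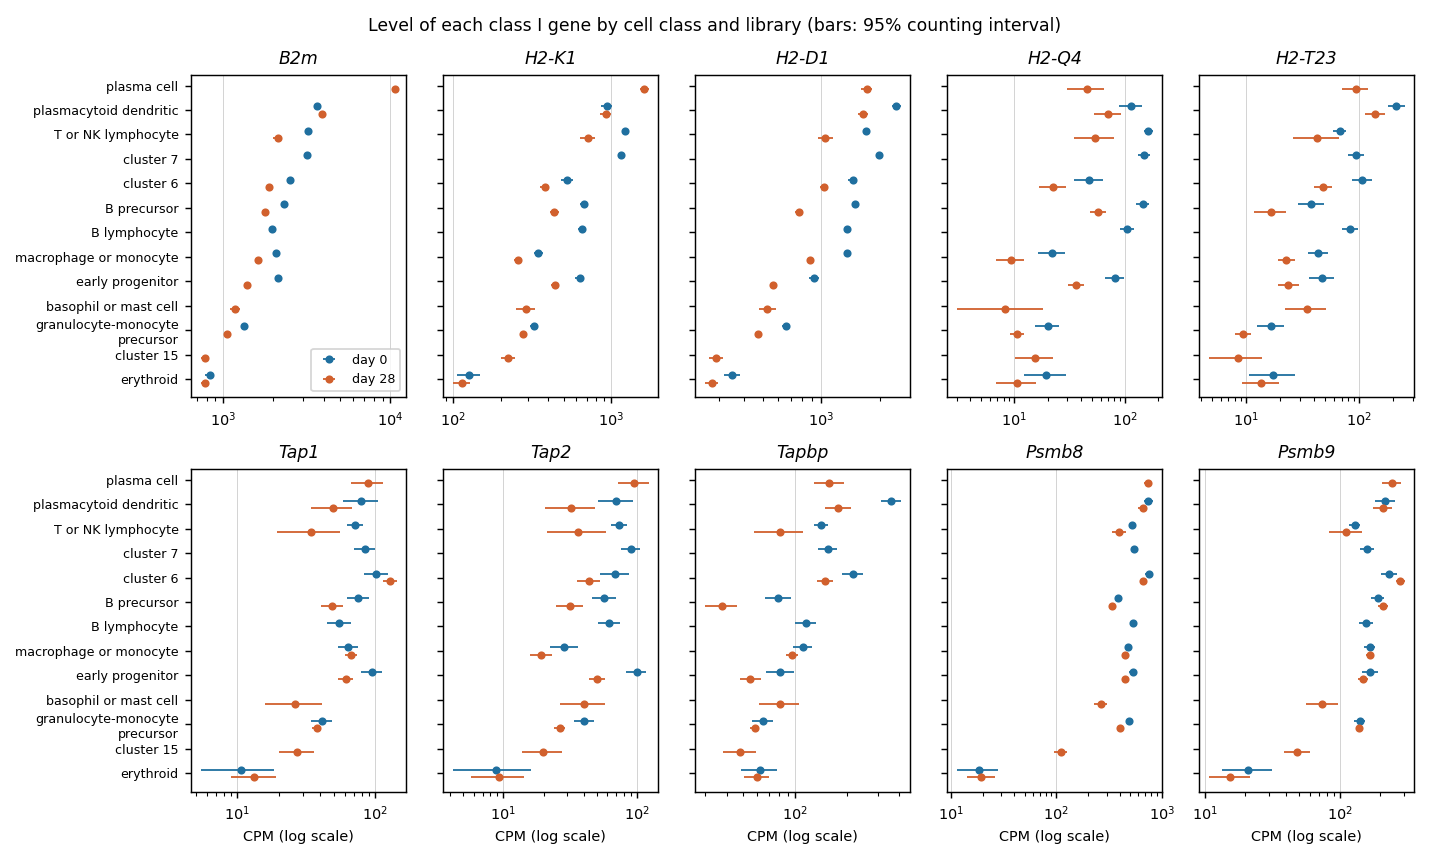
Level of each of the 10 genes (CPM, log axis) in each cell class with at least 50 cells, at day 0 (blue) and day 28 (orange), with exact 95% counting intervals as bars. Plasma cells stand apart for B2m at 10630 CPM, and erythroid cells for Psmb8 at 18.4 and 19.5 CPM.

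The heavy chains did not follow a common order. H2-K1 was highest at day 0 in the T or NK class at 1233 CPM (1194 to 1273), an interval that overlapped cluster 7 at 1160 CPM (1108 to 1214), against 941 CPM in plasmacytoid dendritic cells and 347 CPM in macrophages or monocytes. H2-D1 was highest at day 0 in plasmacytoid dendritic cells at 2431 CPM (2311 to 2556), against 1972 CPM in cluster 7, 1701 CPM in the T or NK class and 1353 CPM in macrophages or monocytes. Macrophages or monocytes thus held 3.90 H2-D1 UMIs per H2-K1 UMI at day 0 (3.62 to 4.22) and 3.41 at day 28 (3.22 to 3.62), the highest values in each library among the classes given. In the T or NK class it was 1.38 and 1.47, in early progenitors 1.45 and 1.29, and in plasma cells 1.05 at day 28. H2-Q4, a class I gene of the Qa region, stood at 163 CPM in the T or NK class, 148 CPM in cluster 7, 145 CPM in B precursors, 113 CPM in plasmacytoid dendritic cells and 104 CPM in B lymphocytes at day 0, each overlapping its neighbour, against 21.9 CPM in macrophages or monocytes. At day 28 it was highest in plasmacytoid dendritic cells at 70.2 CPM, which overlapped B precursors at 57.3 CPM. Granulocyte-monocyte precursors of day 0 held 66 H2-Q4 UMIs of 3303073 in all. H2-T23, which encodes the Qa-1 molecule read by NK receptors, was highest in plasmacytoid dendritic cells, with 213 CPM (178 to 252) in the day 0 library and 138 CPM (112 to 168) in that of day 28, where plasma cells at 93.2 CPM overlapped it. It stood at 16.7 and 9.41 CPM in granulocyte-monocyte precursors, which did not separate from erythroid cells at 17.6 and 13.7 CPM.

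The loading genes had their own peaks. Tapbp was highest in plasmacytoid dendritic cells, with 357 CPM (312 to 407) and 177 CPM (147 to 211) in the libraries of day 0 and day 28, 4.38 and 3.22 times the early progenitors. At day 28 plasma cells at 157 CPM overlapped it. Tap1 was highest in cluster 6, with 102 CPM (82.3 to 124) in the mice without surgery and 128 CPM (114 to 143) in those of day 28. That interval overlapped early progenitors (94.6 CPM) at day 0 and plasma cells (88.5 CPM) at day 28. Tap2 was highest in early progenitors at day 0, at 99.0 CPM (83.1 to 117), which overlapped cluster 7 at 89.7 CPM (75.7 to 106). Its lowest level outside the red lineage was in macrophages or monocytes, at 28.6 CPM (22.2 to 36.3), which overlapped granulocyte-monocyte precursors at 40.3 CPM (33.7 to 47.7). At day 28 plasma cells had the highest Tap2 at 94.7 CPM (72.5 to 122). The ratio of class to early progenitors was thus below 1 for Tap2 in macrophages or monocytes in both libraries, 0.289 and 0.381, while that for H2-D1 was 1.47 and 1.55.

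Set against early progenitors of the same library, the erythroid class was lower by at least 2-fold for 9 of the 10 genes at day 0 and 7 of 10 at day 28. Among all genes with a mean of at least 10 CPM, 32.8% and 22.1% were lower by that much. The haemoglobin gene Hbb-bs alone stood at 78049 and 22881 CPM in the erythroid class. Granulocyte-monocyte precursors were 2-fold lower for 4 genes at day 0 and 2 at day 28, against 9.47% and 5.44% of all genes. H2-Q4 and H2-T23 were among them in both libraries, at 0.247 and 0.357 times the progenitors at day 0 and 0.294 and 0.396 at day 28. Plasmacytoid dendritic cells were 2-fold higher for 3 genes at day 0 (H2-D1, H2-T23 and Tapbp) and for 5 at day 28, where B2m and H2-K1 joined them, against 17.3% and 17.9% of all genes. The T or NK class was 2-fold higher for 1 gene at day 0 (H2-Q4, 2.01 times) and 0 at day 28, against 7.38% and 7.99%. That count was not stable, with 6 genes at day 0 and 4 at day 28 under median-of-ratios scaling.

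Psmb8, which encodes the inducible subunit LMP7, separated red cells from all other classes. Erythroid cells held it at only 18.4 CPM (11.4 to 28.2) and 19.5 CPM (14.2 to 26.2) in the libraries of day 0 and day 28, 0.0347 and 0.0437 times the early progenitors. Cluster 15 lay between at 110 CPM (94.8 to 126), and every remaining class stood at 264 to 754 CPM. Psmb9, which encodes LMP2, stood at 21.1 and 15.5 CPM in erythroid cells and 48.6 CPM in cluster 15, against 74.3 to 280 CPM elsewhere. RNA released from broken cells can give UMIs in droplets of any type, and its amount was not measured here. Genes of other lineages were read in erythroid cells for comparison. Of 11 such genes, Cd74 stood at 9.64% of its level over all cells at day 0, Cd3e at 9.35%, Cd79a at 13% and Ccl5, the highest, at 14.2%. At day 28 the highest was Cd3e at 33.0%, from 3 UMIs. Psmb8 stood at 3.87% and 4.88% of its level over all cells, under 9 of the 11 shares at day 0 and under all 11 at day 28, so erythroid Psmb8 is not read as expression. The source of those UMIs was not tested. Psmb9, at 14.2% and 10.5%, lay beside those shares too. B2m stood at 36.4% and 51.7%, Tapbp at 53.1% and 82.0%, and H2-D1 at 27.2% and 42.7%, above all 11 shares in both libraries.

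The share of the inducible subunit within each catalytic pair does not depend on scaling. Psmb8 made up 83.5% (81.7 to 85.1) of Psmb8 and Psmb5 UMIs in the T or NK class at day 0, 83.4% in plasmacytoid dendritic cells, 74.6% in early progenitors, 66.9% in macrophages or monocytes, 65.8% in B precursors and 63.0% (61.1 to 64.9) in granulocyte-monocyte precursors. Erythroid cells stood at 11% (6.94 to 16.3) and 14.0% (10.4 to 18.4) in the 2 libraries, and cluster 15 at 50% (44.9 to 55.1) at day 28. Psmb9 made up 49.0% of Psmb9 and Psmb6 UMIs in the T or NK class and 9.96% in erythroid cells at day 0. Psmb10, the third inducible subunit, made up 66.7% (62.6 to 70.5) of Psmb10 and Psmb7 UMIs in the T or NK class, 36.9% in B precursors and 6.44% in erythroid cells at day 0. The Psmb8 share was higher at day 28 in all 8 classes as first measured, among them erythroid cells, whose Psmb8 is not read as expression. The intervals of the 2 libraries did not overlap in macrophages or monocytes (66.9% and 74.3%) or granulocyte-monocyte precursors (63.0% and 70.3%). Psmb5 itself was lower there, at 0.656 and 0.589 times its day 0 level. In the T or NK class the order of the libraries turned after thinning (83.5% and 83.0%), at resolution 1.2 (82.8% and 82.0%), with MHC genes in the clustering (82.9% and 82.4%) and without a doublet filter (82.7% and 81.7%). It also turned in erythroid cells after thinning (16.3% and 14.8%). The Psmb9 share was higher at day 28 in every compared class except erythroid cells (9.96% and 7.43%). Its intervals lay apart only in granulocyte-monocyte precursors (32.9% and 39.0%). The Psmb10 share went the other way and was lower at day 28 in 6 of the 8 classes. In the T or NK class it stood at 48.5% (36.2 to 61.0) at day 28, an interval below that of day 0, and in B precursors at 30% (26.6 to 33.5), which overlapped that of day 0.

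**Figure D2:**
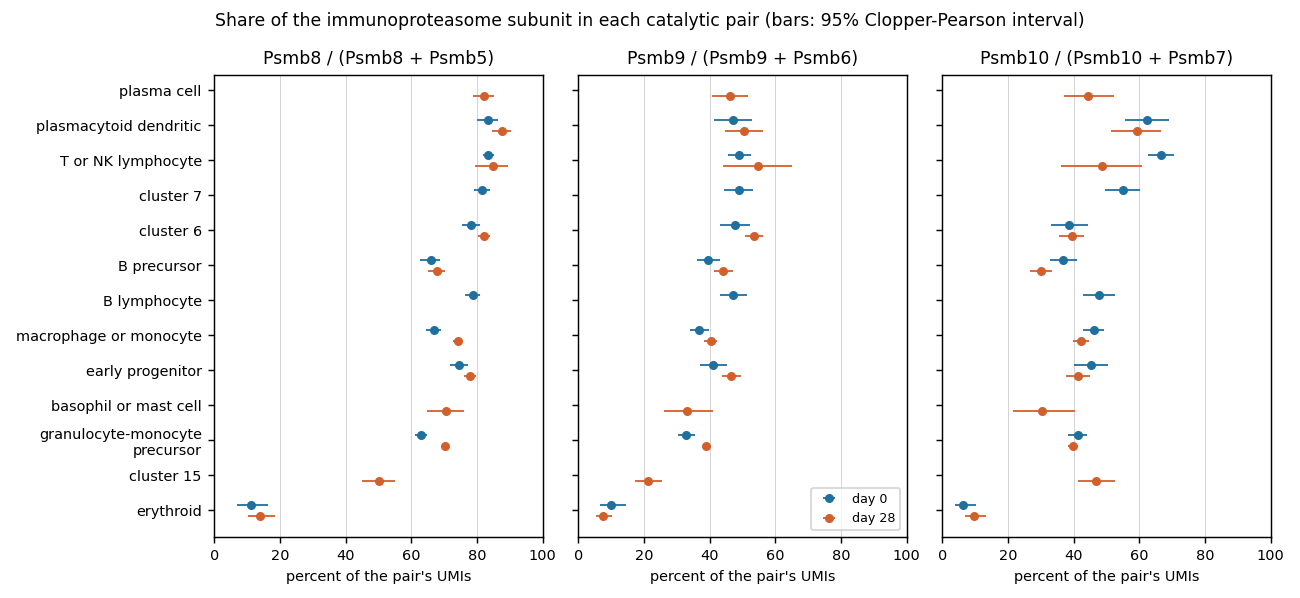
Share of the inducible subunit in each catalytic proteasome pair (percent of the pair's UMIs) by class, day 0 in blue and day 28 in orange, with exact Clopper-Pearson 95% intervals. The Psmb8 share lies between 63.0% and 87.7% in leukocyte and progenitor classes with a name, at 50% in cluster 15, and at 11% and 14.0% in erythroid cells.

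The second question was whether the genes differed between the libraries inside a class. Over all kept cells, B2m gave 2290 CPM in the day 0 library and 1505 CPM in the day 28 library, but the mix of classes differed between the libraries, so ratios were taken within the 8 classes with at least 50 cells in each. Of the 80 pairs of gene and class, 71 ratios of day 28 to day 0 were below 1 and 9 above. The interval lay wholly below 1 in 55 pairs and wholly above 1 in 2, B2m in plasmacytoid dendritic cells and Psmb9 in cluster 6. The share of all genes with such intervals was not computed, so these counts have no background beside them. The median of all genes was itself below 1 in most classes (log2 -0.24 in early progenitors to 0.09 in erythroid cells). Under median-of-ratios scaling, which sets that median to 1 in each class, 67 of the 80 ratios were below 1 and 72 lay on the same side of 1 as before. The exceptions there were in Psmb8, Psmb9, H2-K1 and Tap2. In 12 pairs the level was at least 2-fold lower at day 28 and in 0 at least 2-fold higher. By class, 1.41% to 8.58% of all genes were lower and 0.457% to 8.13% higher by that much. The count of 12 was 6 under median-of-ratios scaling and 7 when only cells with at least 4175 UMIs were kept.

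**Figure D3:**
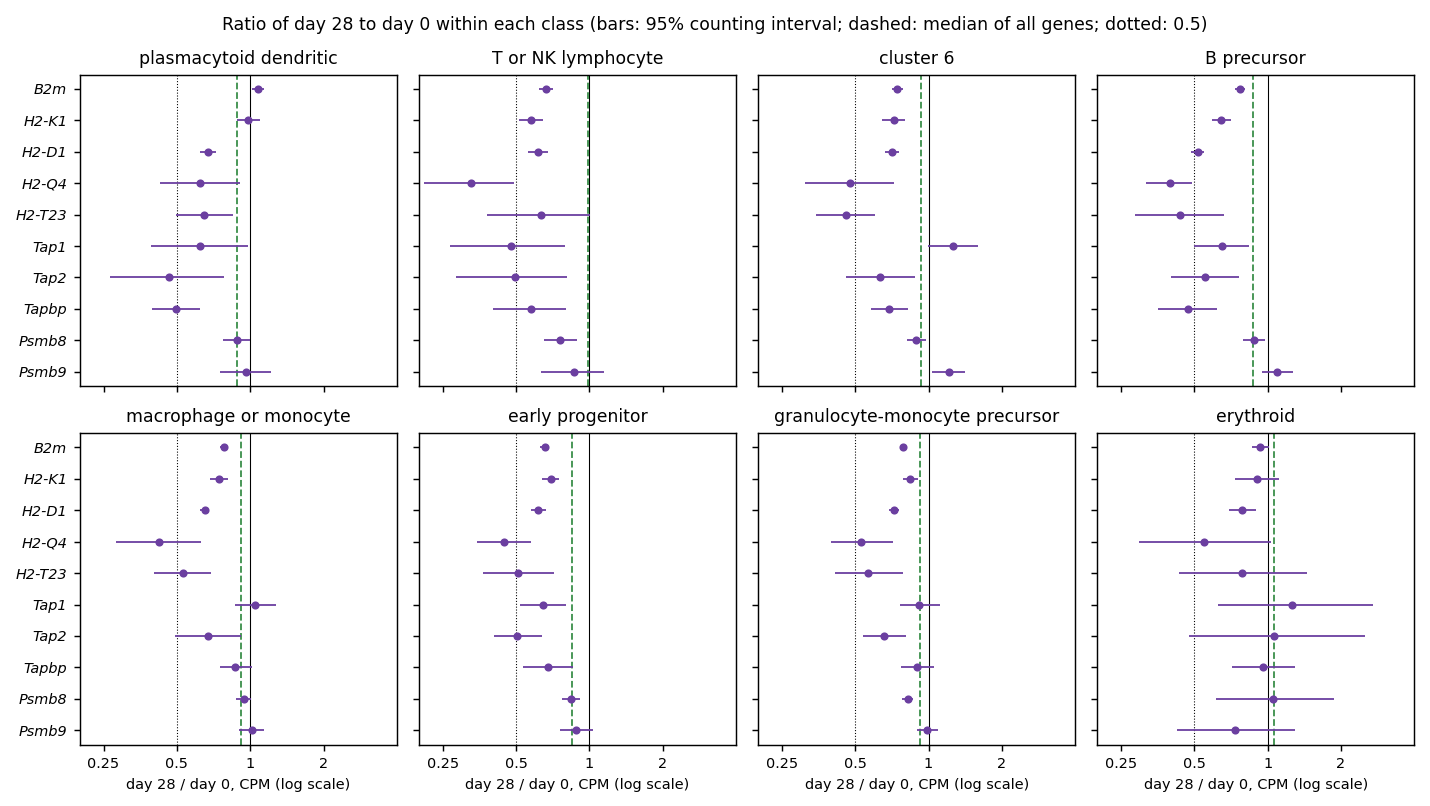
Ratio of day 28 to day 0 CPM (log axis) for each gene in the 8 classes with at least 50 cells in both libraries, with exact 95% counting intervals, a solid line at 1, a dotted line at 0.5 and a dashed line at the median of all genes. H2-D1 and H2-Q4 lie left of 1 in all 8 panels, while Psmb9 lies near 1.

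The heavy chains were lower at day 28 in the classes compared, with H2-K1 in plasmacytoid dendritic cells as the pair nearest to 1. H2-D1 had intervals wholly below 1 in all 8 classes, with ratios from 0.516 (0.486 to 0.549) in B precursors to 0.786 (0.692 to 0.894) in erythroid cells. Its level in B precursors was 1495 CPM at day 0 and 772 CPM at day 28, and the 2 intervals did not overlap. In cluster 5 alone, without the cluster 12 cells that were mostly of day 0 and stood higher (2059 CPM against 1282 CPM), the ratio was 0.593. H2-K1 had ratios from 0.576 (0.514 to 0.645) in the T or NK class, where it stood at 1233 and 710 CPM, to 0.983 (0.878 to 1.10) in plasmacytoid dendritic cells, where it stood at 941 and 924 CPM. Under both other scalings that last ratio was above 1. H2-Q4 had the lowest median ratio of the 10 genes, 0.460 over classes. Its ratio was not the lowest in every class: in plasmacytoid dendritic cells it was 0.624, against 0.463 for Tap2. H2-Q4 stood at 163 and 53.3 CPM in the T or NK class, a ratio of 0.328 (0.210 to 0.490). In B precursors it stood at 145 and 57.3 CPM, a ratio of 0.396 (0.318 to 0.491). In macrophages or monocytes, early progenitors and cluster 6 its ratios were 0.421, 0.446 and 0.474. H2-T23 had a median ratio of 0.546 and was 2-fold lower in B precursors (38.0 and 16.6 CPM) and in cluster 6 (106 and 48.5 CPM). H2-D1 and H2-Q4 kept ratios below 1 in all 100 class values of the 13 alternatives of processing.

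The light chain had a median ratio of 0.776 over the 8 classes, against 0.731 for H2-K1 and 0.661 for H2-D1. The B2m ratio was 0.655 (0.626 to 0.686) in early progenitors, 0.665 in the T or NK class, 0.745 in cluster 6, 0.771 in B precursors, 0.781 in macrophages or monocytes and 0.789 in granulocyte-monocyte precursors. In erythroid cells it was 0.933 (0.862 to 1.01), an interval that includes 1. In plasmacytoid dendritic cells it was 1.07 (1.02 to 1.14), from 3629 CPM at day 0 to 3899 CPM at day 28, on the other side of 1 from early progenitors at 2125 and 1392 CPM. B2m UMIs per UMI of the 4 heavy chains were higher at day 28 in each of the 8 classes. In plasmacytoid dendritic cells they were 0.982 (0.926 to 1.04) against 1.41 (1.33 to 1.49). In B precursors they were 0.988 (0.945 to 1.03) against 1.40 (1.33 to 1.47). Intervals also lay apart in macrophages or monocytes (1.17 and 1.38) and the T or NK class (1.01 and 1.15). They overlapped in the remaining classes, such as early progenitors at 1.26 and 1.30. Plasma cells held 3.06 (2.92 to 3.21) at day 28 and erythroid cells 1.63 and 1.89, above the classes with nearer to 1 light chain UMI per heavy chain UMI.

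**Figure D4:**
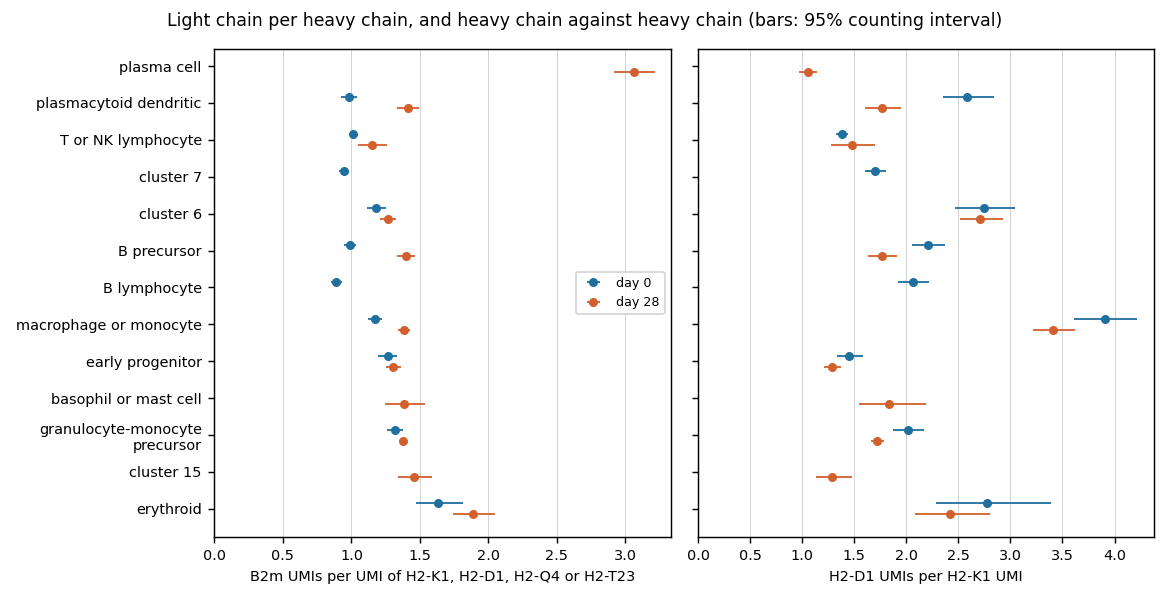
Left, B2m UMIs per UMI of H2-K1, H2-D1, H2-Q4 or H2-T23, and right, H2-D1 UMIs per H2-K1 UMI, by class, day 0 in blue and day 28 in orange, with exact 95% counting intervals. Plasma cells lead on the left at 3.06 and macrophages or monocytes on the right at 3.90 and 3.41.

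The transporter and tapasin genes differed by class. Tap2 was lower at day 28 with an interval below 1 in 7 of 8 classes, from 0.463 (0.267 to 0.783) in plasmacytoid dendritic cells (69.8 and 32.3 CPM) to 0.668 in macrophages or monocytes. Tapbp was lower in plasmacytoid dendritic cells, at 0.496 (0.396 to 0.619), and in B precursors, at 0.470 (0.354 to 0.620) from 79.5 to 37.4 CPM, while its interval included 1 in macrophages or monocytes, granulocyte-monocyte precursors and erythroid cells. Tap1 was split: its ratio was 0.478 (0.268 to 0.793) in the T or NK class, where the day 28 value rests on 16 UMIs, and 0.643 in early progenitors. It was 1.05 (0.863 to 1.27) in macrophages or monocytes and 1.26 (0.994 to 1.60) in cluster 6, both with intervals that include 1.

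The proteasome members had the median ratios nearest to 1 of the 10 genes, 0.879 for Psmb8 and 0.973 for Psmb9. Psmb8 ratios lay between 0.760 (0.649 to 0.886) in the T or NK class and 1.06 (0.615 to 1.87) in erythroid cells. They were below 1 in 7 of 8 classes, with the interval wholly below 1 in 6. In those 7 classes the median of all genes was below 1 too. Under the 2 other scalings Psmb8 kept its side of 1 in 12 of 16 values, so it is not read as lower apart from that shift. The erythroid ratio rests on 21 and 44 UMIs that are not read as expression. Psmb9 ratios lay between 0.735 (0.425 to 1.29) in erythroid cells and 1.21 (1.03 to 1.42) in cluster 6, where Psmb9 stood at 231 and 280 CPM, and 5 of 8 were below 1. Psmb9 sides were also the least stable, with 79 of 100 alternative values on the side of 1 first measured. Neither gene was 2-fold different in any class.

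Counted by class, B precursors had 3 of 10 genes at least 2-fold lower (H2-Q4, H2-T23 and Tapbp), where 7.33% of all genes were lower and 1.2% higher by that much. The T or NK class had 3 (H2-Q4, Tap1 and Tap2), where 8.58% were lower and 8.13% higher. Plasmacytoid dendritic cells had 2 (Tap2 and Tapbp), with 8.25% lower and 4.01% higher, and cluster 6 had 2 (H2-Q4 and H2-T23), with 4.37% and 1.59%. Macrophages or monocytes had 1 (H2-Q4), with 2.09% and 0.457%, and early progenitors 1 (H2-Q4), with 4.82% and 0.793%. Granulocyte-monocyte precursors had 0, with 1.41% lower and 0.459% higher, and erythroid cells 0 of the 9 genes at 10 CPM, with 2.23% and 3.76%. Of the 12 pairs that were 2-fold lower, 5 were of H2-Q4 and 2 of H2-T23, whose values are read as uncertain for shared 3′ stretches. The rest were of Tap1, Tap2 and Tapbp. The median log2 ratio of the 10 genes was -0.75 in the T or NK class against -0.02 for all genes, -0.74 against -0.19 in B precursors, -0.62 against -0.24 in early progenitors, -0.60 against -0.18 in plasmacytoid dendritic cells and -0.31 against -0.12 in granulocyte-monocyte precursors. With cluster 8 alone as the T or NK class, B2m had a ratio of 0.647, H2-Q4 0.309 and Tap1 0.466 there, but Tap2 stood at 0.727 in place of 0.496. With cluster 5 alone as B precursors, H2-Q4 stood at 0.433, and H2-T23 (0.549) and Tapbp (0.684) were no longer 2-fold lower.

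Transcripts typical of other cells also differed between the libraries, in both directions. Cd74, the class II invariant chain of B and dendritic cells, stood at 379 CPM in erythroid cells at day 0 and 28.8 CPM at day 28, and at 267 and 78.3 CPM in granulocyte-monocyte precursors. Of the list of 11 leukocyte genes, 5 of the 7 at 10 CPM or more in erythroid cells were at least 2-fold lower there at day 28. Their median log2 ratio was -2.33, while the class I genes at 10 CPM or more, all but Tap2, had a median of -0.15 in the same cells. Cd3d in B precursors stood at 28.9 and 5.09 CPM, and Cd79a in the T or NK class at 31.1 and 17.1 CPM. The neutrophil precursor gene Elane was higher at day 28 in the T or NK class (29.2 and 115 CPM), B precursors (33.1 and 118 CPM), plasmacytoid dendritic cells (23.8 and 132 CPM), cluster 6 (19.3 and 132 CPM) and erythroid cells (24.6 and 212 CPM). The neutrophil gene S100a8 was higher too in the T or NK class (21.0 and 78.9 CPM) and B precursors (22.9 and 67.5 CPM), but in erythroid cells it stood at 1139 and 147 CPM. The part of free RNA in the ratios of the class I genes was not tested. Depth per cell also differed, with median totals of 3637 and 4928 UMIs in the T or NK class and 4833 and 8395 in B precursors.

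Cell by cell, B2m was found in most cells of every class when each was thinned to 3200 UMIs, which left out 225 shallower cells of day 0. Its median was 10 UMIs in the T or NK class at day 0 and 7 at day 28, and 98.7% of the cells of day 28 had a UMI. In plasmacytoid dendritic cells the median was 11 and 12, in early progenitors 7 and 4, in macrophages or monocytes 7 and 5, and in granulocyte-monocyte precursors 4 and 3. In erythroid cells it was 2 in both libraries, and 92.1% and 83.2% of cells had a UMI, against 6.93% and 6.40% for Psmb8. The B2m Fano factor, the variance over the mean, lay between 1.27 and 3.36 in the 7 named classes compared. It was 9.25 in plasma cells of day 28, whose middle 50% of cells held 23 to 47 UMIs, and 10.4 in cluster 6 at day 0, where the median was 6 but the highest cell held 78. The same cluster stood at 2.96 at day 28, with a highest value of 26.

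**Figure D5:**
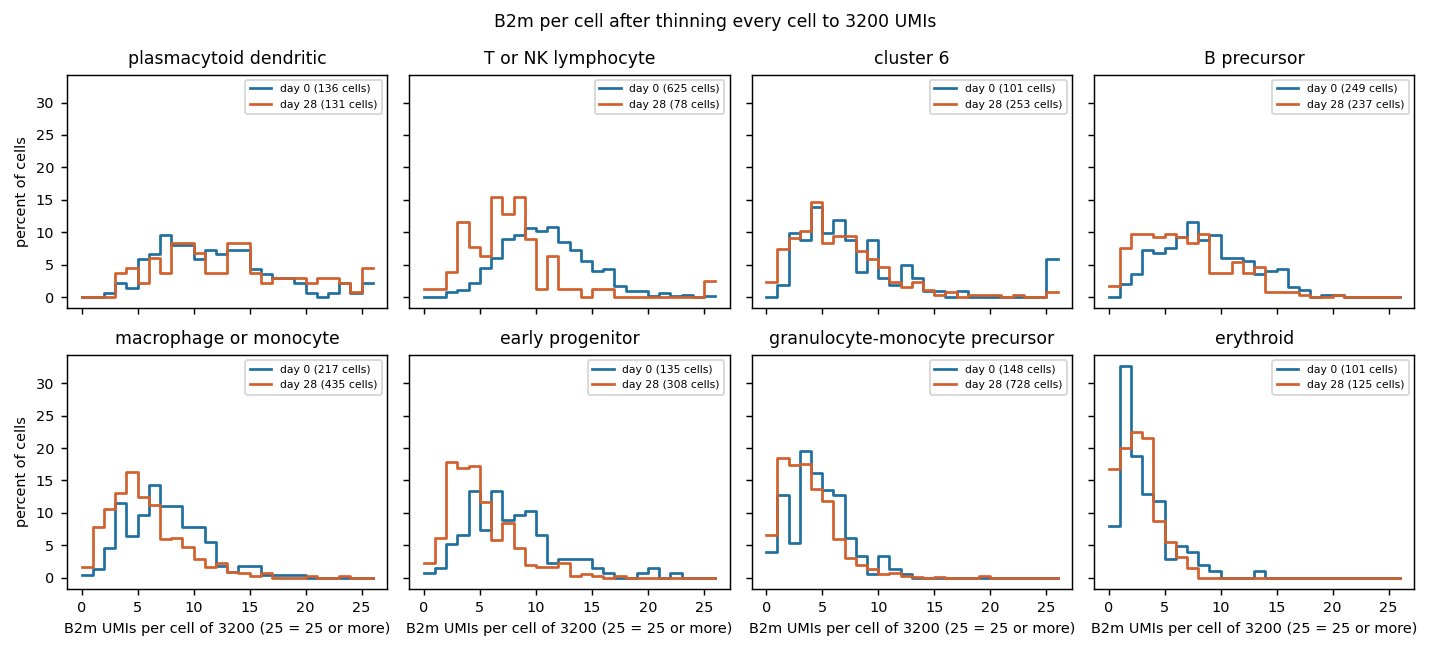
B2m UMIs per cell after thinning to 3200 UMIs (horizontal axis, 25 standing for 25 or more) against the percent of cells, in 8 classes, day 0 in blue and day 28 in orange. The T or NK and early progenitor cells of day 28 lie left of those of day 0 (medians of 7 against 10 and 4 against 7), and plasmacytoid dendritic cells overlap.

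Lists of other genes of the pathway were counted by the same rule. The 11 other core proteasome subunits had 0 genes past 2-fold in each of the 8 classes, with medians from log2 -0.41 in the T or NK class to -0.15 in cluster 6. The list of 9 other catalytic subunits and activators also had 0 in each. Across classes 1.41% to 8.58% of all genes were 2-fold lower and 0.457% to 8.13% higher, so counts of 0 in lists this short lie near those shares. Psmb10 had ratios from 0.562 in the T or NK class to 1.10 in erythroid cells, with 7 of 8 below 1. The other class I heavy chains had medians from log2 -0.87 in B precursors to -0.12 in plasmacytoid dendritic cells. Among them H2-Q6 stood at 124 and 28.4 CPM in B precursors, a ratio of 0.229 (0.171 to 0.303), and H2-Q7 at 404 and 256 CPM in the T or NK class. H2-T22 was above 1 in macrophages or monocytes (1.22), plasmacytoid dendritic cells (1.22), early progenitors (1.14) and cluster 6 (1.02), and below 1 in the rest. Of the peptide trimming and loading genes, Tapbpl, a tapasin relative, had ratios of 0.446 in B precursors, 0.529 in granulocyte-monocyte precursors and 0.543 in early progenitors, while Calr, the chaperone calreticulin, had ratios of 1.05, 1.10 and 1.19 in the same classes.

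Transcription factors that act on class I promoters were also measured. Irf1, an interferon-induced activator, stood at 47.6 and 20.4 CPM in B precursors, a ratio of 0.428 (0.293 to 0.620), and at 73.4 and 38.4 CPM in the T or NK class, a ratio of 0.523. It stood at 371 and 368 CPM in plasmacytoid dendritic cells and at 101 and 105 CPM in cluster 6. Nlrc5, the class I transactivator, was under 10 CPM in every class except the T or NK class, where it stood at 18.0 and 14.9 CPM. Of the 20 interferon-stimulated genes, 13 reached 10 CPM in the T or NK class, with 4 at least 2-fold lower and 0 higher. Among all genes there, 8.58% were lower and 8.13% higher by that much. The median of the 13 was log2 -0.30, and they were not measured in cluster 8 alone. In macrophages or monocytes 7 reached 10 CPM, with 1 lower against 2.09% of all genes, and the median was 0.12. Other classes are not given for this list. All 8 MHC class II genes were at least 2-fold lower in B precursors (median log2 -3.42, against -0.74 for the 10 class I genes), where 7.33% of all genes were. The B precursors held 101 cells of cluster 12 at day 0 and 6 at day 28. Class II genes were not measured in cluster 5 alone. In plasmacytoid dendritic cells 1 of the 8 was at least 2-fold lower, against 8.25% of all genes. The class II median of -0.40 there was nearer to 0 than the -0.60 of the class I genes.

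Over the 21 sums of a class and a library with at least 50 cells, the level of B2m on the log2 scale went with H2-K1 (Pearson r = 0.908), H2-D1 (0.873) and H2-T23 (0.805), and least with H2-Q4 (0.628). Of the 2279 genes compared, the most like B2m outside the pathway were Idnk (0.887), Akirin1 (0.869), Dnajb9 (0.865), Cdc42se2 (0.863) and Slc3a2 (0.862). The sum of the transporter, tapasin and proteasome members was most like Psme1 (0.913), a subunit of the proteasome activator, then Laptm5 (0.909), Arhgap30 (0.906) and G3bp2 (0.903), with Psme2, the partner of Psme1, at 0.891. These values describe 21 sums from 2 libraries that share library, depth and class makeup, and the sums are not independent. The plasma cell sum of day 28, at 10630 CPM of B2m, lay far above the next, at 3899 CPM. The correlations were not computed without it, so how far it sets the ranking was not tested.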

How the data were processed

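Raw UMI counts per gene and barcode were deposited by the authors without normalisation, made with Cell Ranger 2.1.1 and STAR on mm10, per the submitters' processing notes. Cells under 500 genes or over 10% mitochondrial UMIs were removed, and the top-scoring doublets at the rate expected for the system, 57 and 56 cells, were left out. Leiden clustering (scanpy 1.11.5, leidenalg 0.10.2, resolution 0.8) used 2000 variable genes without class I, class II or proteasome genes. Clusters were named from marker lists, with thresholds set after seeing the data. The lowest deposited totals were 3001 and 4175 UMIs.

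UMIs were summed per class and library and scaled to CPM. Intervals are Poisson (levels), Clopper-Pearson (shares) and conditional binomial (ratios), tested on simulated data. Genes at a mean of 10 CPM or more entered counts past 2-fold. Named were all 10 genes, fixed pathway genes (1 is not reported here), the 2 highest and 2 lowest of each pathway list, and the genes most like B2m (a mean of 50 CPM, log2 of CPM plus 10). The genes and lists were chosen with earlier results of these data known.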

Additional observations from a re-analysis of the deposited data

Results flagged for a closer look

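The B2m ratio of day 28 to day 0 was 1.07 in plasmacytoid dendritic cells and 0.655 in early progenitors, so the only library of each group moved one way in the first class and the opposite way in the second. With 1 library per group the difference between the classes was not tested.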

How the results depend on the processing

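No paired analysis was possible because each group has 1 library. The 12 pairs of gene and class that were 2-fold lower at day 28 became 6 under median-of-ratios scaling, 7 with only cells of at least 4175 UMIs, 36 with a 1.5-fold rule and 3 with classes from marker UMIs, where 50 pairs could be measured. The 0 pairs that were 2-fold higher became 1 after thinning. Over early progenitors, the T or NK count (1 at day 0, 0 at day 28) lay between 0 and 6 at day 0 and between 0 and 4 at day 28: without mitochondrial, ribosomal protein and haemoglobin genes it was 4 and 2, under median-of-ratios scaling 6 and 4, with the 1.5-fold rule 5 and 4, with cluster 8 alone 3 at day 0, without a doublet filter 0 and 2, and with resolution 1.2, with MHC genes in the clustering or with cluster 7 as T cells 0 and 1. The granulocyte-monocyte precursor count of 4 at day 0 became 2 at resolution 0.4, and that of 2 at day 28 became 1 without a doublet filter and 5 with the 1.5-fold rule. B2m in the T or NK class over erythroid cells was 3.84 at day 0 and 2.74 at day 28, and 4.42 and 3.24 without mitochondrial, ribosomal protein and haemoglobin genes. At day 28 it was also 3.23 after thinning, 3.11 at resolution 1.2, 3.12 with MHC genes in the clustering, 3.20 without a doublet filter and 3.24 with cluster 7 as T cells. B2m in plasma cells over B precursors (5.93) was 5.24, 5.64 and 6.29 without those genes, with means of per-cell CPM and without a doublet filter. The Psmb8 share was 81.2% and 81.6% in the T or NK class of day 0 with depth-matched cells and cluster 8 alone, 81.3% in early progenitors of day 28 after thinning, and in erythroid cells 16.3% after thinning and 18.1% without a doublet filter at day 0, and 23.2% without one at day 28. The cause of each was not tested. No ratio past the 2-fold rule turned its direction in these alternatives, of which the cluster 7, mixed-marker and 1-cluster ones were chosen after seeing the data. Depth limits H2-Q4, H2-T23, Tap1 and Tap2 most, which rest on 16 to 25 UMIs in the T or NK class of day 28.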
